A study of Mus musculus with 10 samples.

Results

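The expression of 10 interferon-inducible GTPase genes was followed in macrophages of lung metastases and of normal lung. They were named as a list, by gene symbol and without a threshold on any value, but with earlier results of these data known. The list held the guanylate-binding protein genes Gbp2, Gbp3, Gbp5, Gbp7 and Gbp9, and the immunity-related GTPase genes Irgm1, Irgm2, Igtp, Iigp1 and Tgtp2. All 10 were among the 24538 genes of the count files, and all 10 were among the 11571 genes tested, which had a mean FPKM (fragments scaled to transcript length and library size) of at least 1 in either group and at least 1 count. RNA-seq was done on sorted macrophages of Wild type C57BL6/J mice 8 to 10 weeks old. Metastasis-associated macrophages (MAMs, n = 5 libraries) came from metastases that E0771-LG mammary carcinoma cells had formed by day 11 after injection into a tail vein of females aged 6 to 8 weeks. Resident alveolar macrophages (RAMs, n = 5 libraries) came from normal lung. Both populations were CD45+F4/80+LY6C-MRC1+ cells of high forward scatter, MAMs being CD11B+CD11C- and RAMs CD11B-CD11C+. Transcription inhibitors were present during digestion in both groups. Each MAM library pooled metastases of 2 to 4 mice, so that spread among single mice was not seen. The labels do not say whether a RAM library came from 1 mouse. The paper describes its samples in general as single mice or pooled metastases. Tissue, tumour exposure and the CD11B and CD11C gates differed together between the groups and cannot be told apart.

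Guanylate-binding proteins (GBPs) are large GTPases of the dynamin superfamily that assemble on pathogen membranes and on the vacuoles that hold microbes. Immunity-related GTPases (IRGs) are smaller and fall into effectors, which load onto such vacuoles and disrupt them, and regulators of the IRGM group, which sit on the cell's own membranes and keep the effectors inactive there. Both families are induced in macrophages by interferon-gamma, with IRF1 among the factors involved, and several members also by type I interferons, with IRF9 among them. Mouse GBP genes lie in a cluster on chromosome 3 and another on chromosome 5, and neighbours in these clusters and in the IRG clusters can be close copies of each other.

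The libraries held 55391447 to 87523247 counts on genes in MAMs and 50746305 to 72150650 in RAMs. Reads outside annotated genes made up 38.3 to 43.1% of MAM and 48.7 to 50.8% of RAM reads. Levels are given as CPM, the counts scaled to the library total with a TMM factor, and no pair of libraries was identical. The labels were checked against marker genes. The summed level of 8 monocyte and recruited macrophage markers was 7894 to 8358 CPM in MAMs and 126 to 142 CPM in RAMs. Itgam, which encodes the sorting marker CD11B, gave 6270 CPM of the MAM mean and 64.3 CPM of the RAM mean. This sum thus largely restates the sort, but all 8 markers were higher in MAMs without overlap. In contrast, 7 alveolar macrophage markers summed to 250 to 546 CPM in MAMs and 8477 to 11329.7 CPM in RAMs. Chil3 gave 9151 CPM of the RAM mean, and Marco gave 232 CPM of the MAM mean. Of the 7 markers 6 were lower in MAMs without overlap, and Marco was not called.

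The bases before the start sites of the genes are shown first, because the factors named above bind DNA there and because the sequences show how alike some members are. RefSeq promoter sequences (GRCm38.p6, 250 bases before to 50 after the start site) matched 8 of the 10 members, and Gbp9 and Iigp1 were not matched. The gene positions given further below come from another annotation, GENCODE M21. There Irgm2 and Gbp5 begin well upstream of the RefSeq start sites, at 58199618 and 142493978, and sequence before those positions was not searched. Each line gives the 120 bases before the start site, except for Gbp5, where all 300 bases are given because its first motif lies farther out. Capitals mark GAAA followed by 2 bases of any kind and GAAA again, the core of the element bound by interferon regulatory factors, or its reverse complement with TTTC, and also TTCNNNGAA, the palindrome of interferon-gamma activated sites. Both were searched on both strands, and where capitals run on over 16 bases 2 matches of the GAAA motif overlap.
Gbp2 (chr3:142620543-142620662, plus strand): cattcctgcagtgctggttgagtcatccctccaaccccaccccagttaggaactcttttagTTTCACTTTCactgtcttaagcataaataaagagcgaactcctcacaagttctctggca
Gbp3 (chr3:142559924-142560043, plus strand): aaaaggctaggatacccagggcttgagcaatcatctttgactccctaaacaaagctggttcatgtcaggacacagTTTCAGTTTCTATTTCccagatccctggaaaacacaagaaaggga
Gbp7 (chr3:142530216-142530335, plus strand): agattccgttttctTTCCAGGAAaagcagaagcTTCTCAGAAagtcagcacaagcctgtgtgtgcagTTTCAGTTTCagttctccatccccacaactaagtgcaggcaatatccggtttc
Irgm1 (chr11:48871421-48871540, minus strand): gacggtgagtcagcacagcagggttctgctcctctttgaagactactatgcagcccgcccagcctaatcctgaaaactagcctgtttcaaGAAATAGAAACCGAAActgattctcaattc
Igtp (chr11:58199436-58199555, plus strand): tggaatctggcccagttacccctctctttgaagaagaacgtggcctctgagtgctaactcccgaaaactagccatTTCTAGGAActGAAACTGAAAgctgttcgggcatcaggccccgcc
Irgm2 (chr11:58214857-58214976, plus strand): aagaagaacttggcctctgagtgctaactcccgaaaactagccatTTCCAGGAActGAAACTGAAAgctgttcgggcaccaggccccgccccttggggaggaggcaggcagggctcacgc
Tgtp2 (chr11:49064213-49064332, minus strand): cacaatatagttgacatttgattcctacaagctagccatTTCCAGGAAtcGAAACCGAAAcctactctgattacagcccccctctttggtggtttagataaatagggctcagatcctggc
Gbp5 (chr3:142496684-142496983, plus strand): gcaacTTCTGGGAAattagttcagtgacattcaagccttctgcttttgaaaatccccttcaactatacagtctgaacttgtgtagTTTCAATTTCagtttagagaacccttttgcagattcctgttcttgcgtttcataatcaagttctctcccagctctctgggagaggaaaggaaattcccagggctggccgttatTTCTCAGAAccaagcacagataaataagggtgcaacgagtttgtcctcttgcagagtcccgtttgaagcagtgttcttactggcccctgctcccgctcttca

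The GAAA motif was present in the promoters of 8 of 8 matched members, and in 3.44% of all 32851 RefSeq promoters of the same length. A further RefSeq promoter of Gbp3 did not hold it. TTCNNNGAA was present in 5 of the 8 members, Gbp5, Gbp7, Igtp, Irgm2 and Tgtp2, and in 8.3% of all promoters. In Igtp, Irgm2 and Tgtp2 TTCNNNGAA began 11 bases before the GAAA motif. The promoters of Igtp and Irgm2 were 92.1% identical over 265 aligned bases. A match describes these letters only and is no measure of binding.

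All 10 members rose in MAMs. Each had an adjusted p under 0.05 (edgeR quasi-likelihood test with Benjamini-Hochberg adjustment over all genes tested), the range being 1.73e-13 to 6.15e-08. Iigp1 and Tgtp2, at 0.338 and 0.221 FPKM on average in RAMs, passed the FPKM filter only through MAMs. The other members averaged over 1 FPKM in RAMs too. Of all genes tested, 28.9% were called higher and 27.3% lower in MAMs. All 10 members also changed by more than 2-fold, against 15.3% of all genes tested. For all 10 members, the 5 MAM libraries lay above the 5 RAM libraries without overlap, against 23.7% of all genes tested. The list was chosen with earlier results of these data known, so that these shares describe it and are no test. The median log2 fold change of the members was 4.42, and that of all genes tested was -0.02. Genes called higher made up 51.4% of all calls, but 40.3% with upper-quartile scaling and 36.4% with library totals alone, 2 settings that moved the median of all genes by -0.16 and -0.23 on the log2 scale. All 10 members were called higher under both. In bulk RNA a higher level per cell and a larger share of expressing cells cannot be told apart.

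**Figure D1:**
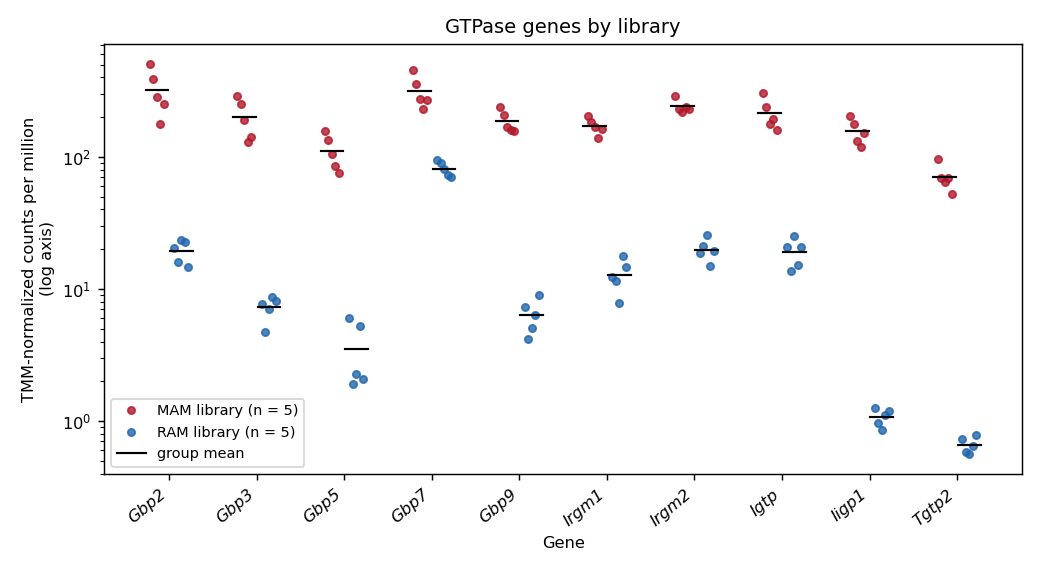
TMM-normalized CPM (log axis) of the 10 GTPase genes in each of 5 MAM and 5 RAM libraries, with points for libraries and lines for group means. MAM points lie above RAM points for every gene, with the closest approach for Gbp7 and the widest gaps for Iigp1 and Tgtp2.

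Among the GBPs, Gbp2 encodes a prenylated protein that is anchored in membranes and is recruited to vacuoles of Toxoplasma. Gbp2 (chromosome 3, 142620602 to 142638008, GRCm38) was at 509.9, 389, 282, 178 and 250.3 CPM in MAM replicates 1 to 5 and at 20.4, 15.9, 23.5, 22.7 and 14.6 CPM in RAM replicates 1 to 5. The lowest MAM library stood well above every RAM library, and the MAM libraries spread over a wider relative range (coefficient of variation 40.3%) than the RAM libraries (20.6%). Gbp2 rose 16.6-fold (log2 fold change 4.05, SE 0.257, adjusted p = 3.00e-09 by edgeR). Gbp3, a neighbour of Gbp2 in the chromosome 3 cluster (142560026 to 142573209), was at 292, 251, 190.1, 130.4 and 141 CPM in MAMs and at 7.71, 4.73, 7.06, 8.68 and 8.14 CPM in RAMs. MAM replicates 4 and 5 were the low libraries of their group, and Gbp3 rose 27.7-fold (log2 fold change 4.79, SE 0.249). Gbp5, which encodes another prenylated family member and is linked to inflammasome activation, lies in the same cluster (142493978 to 142522344). It was at 157, 133, 106, 86.1 and 76.1 CPM in MAMs and at 6.04, 1.92, 2.26, 5.28 and 2.09 CPM in RAMs. RAM replicates 1 and 4 were the high ones, which gave Gbp5 the widest spread of the members in RAMs (coefficient of variation 56.2%) and the largest standard error (log2 fold change 4.99, SE 0.357, 31.7-fold).

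Gbp7 and Gbp9 differed in their level in RAMs. Gbp7 (chromosome 3, 142530342 to 142550149), whose product takes part in antibacterial defence of macrophages, was at 452, 356, 276, 229.5 and 269 CPM in MAMs and at 94.6, 89.4, 80.9, 73.3 and 69.9 CPM in RAMs. It had the highest CPM of the members in RAMs, and its change was the smallest of the 10, 3.88-fold (log2 fold change 1.96, SE 0.161, adjusted p = 6.15e-08 by edgeR). Gbp3 and Gbp7 are neighbours, and the ratio of Gbp7 to Gbp3 in CPM was 1.42 to 1.91 in MAMs and 8.45 to 18.9 in RAMs. These ratios did not overlap between the groups, so that the 2 neighbours did not move by the same factor. Gbp9 belongs to the chromosome 5 cluster (105077630 to 105139539, minus strand). It was at 239, 207, 169.5, 159.7 and 156 CPM in MAMs and at 7.24, 4.20, 5.03, 6.38 and 9.02 CPM in RAMs, a 29.3-fold rise (log2 fold change 4.87, SE 0.210).

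The 3 regulatory IRGs moved by similar amounts. Irgm1 (chromosome 11, 48861968 to 48871683, minus strand), whose product protects the cell's own membranes and is linked to autophagy, was at 205, 183, 169, 140.3 and 162 CPM in MAMs and at 12.3, 11.4, 7.79, 17.7 and 14.8 CPM in RAMs. It rose 13.4-fold (log2 fold change 3.75, SE 0.192). Irgm2 (chromosome 11, 58199618 to 58222782) was at 291, 229, 221, 240.2 and 229.6 CPM in MAMs and at 18.7, 21.02, 25.4, 14.9 and 19.4 CPM in RAMs. Apart from MAM replicate 1, its MAM libraries were close together, and it had the smallest standard error of the 10 (log2 fold change 3.61, SE 0.138, 12.2-fold). Igtp, also known as Irgm3 (58199556 to 58207591), was at 303, 239, 178, 194 and 161 CPM in MAMs and at 20.9, 13.7, 25.0, 15.1 and 20.9 CPM in RAMs. It rose 11.2-fold (log2 fold change 3.49, SE 0.202), and the estimates of the 3 regulators differed by less than 2 of their standard errors.

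The 2 effector IRGs had the largest fold changes of the 10. Iigp1 (chromosome 18, 60376027 to 60392634) encodes Irga6, which coats and breaks Toxoplasma vacuoles. It was at 204, 178, 132, 118 and 153 CPM in MAMs and at 1.25, 0.961, 0.849, 1.11 and 1.19 CPM in RAMs. The RAM values rest on 41 to 73 counts per library, and Iigp1 rose 146-fold (log2 fold change 7.19, SE 0.193, adjusted p = 1.73e-13 by edgeR). Tgtp2 (chromosome 11, 49057194 to 49064206, minus strand) encodes Irgb6, another effector of that kind. It was at 95.8, 69.8, 64.8, 69.8 and 52.0 CPM in MAMs and at 0.736, 0.586, 0.559, 0.647 and 0.789 CPM in RAMs, where 27 to 43 counts were found per library. Tgtp2 rose 106-fold (log2 fold change 6.73, SE 0.207, adjusted p = 7.88e-13 by edgeR). Both effectors were lower in RAMs than any regulator, and in MAMs Tgtp2 also lay below every library of the 3 regulators, in CPM and in FPKM.

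Levels of different genes were compared per length, in the FPKM deposited by the authors. In MAMs the order was Gbp2 (123 ± 49.7 FPKM, SD, n = 5), Igtp (108 ± 29.5), Irgm1 (74.3 ± 10.2), Gbp3 (70.2 ± 24.6), Irgm2 (64.4 ± 7.19), Gbp7 (48.6 ± 13.5), Gbp9 (44.6 ± 8.60), Iigp1 (44.2 ± 9.72), Gbp5 (33.3 ± 10.5) and Tgtp2 (22.3 ± 5.17). The ranges of all neighbours in this order overlapped. In RAMs the order was Gbp7 (12.4 ± 1.60 FPKM, SD, n = 5), Igtp (9.81 ± 2.41), Gbp2 (7.58 ± 1.49), Irgm1 (5.62 ± 1.67), Irgm2 (5.33 ± 1.01), Gbp3 (2.55 ± 0.536), Gbp9 (1.54 ± 0.413), Gbp5 (1.03 ± 0.543), Iigp1 (0.338 ± 0.0485) and Tgtp2 (0.221 ± 0.0385). Here Irgm2 stood above Gbp3, Gbp5 above Iigp1, and Iigp1 above Tgtp2 without overlap, and the other neighbours overlapped. Gbp7 was thus first in rank in RAMs and rank 6 in MAMs. The members spanned 22.3 to 123 FPKM in MAMs and 0.221 to 12.4 FPKM in RAMs.

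The 10 members together took 0.128 to 0.212% of the counts on genes in MAMs and 0.0149 to 0.0180% in RAMs. The 5 GBPs summed to 784 to 1649.7 CPM in MAMs and the 5 IRGs to 757 to 1099 CPM. In RAMs the GBPs summed to 104 to 136 CPM and the IRGs to 47.7 to 59.7 CPM. The ratio of the GBP sum to the IRG sum was 1.03 to 1.501 in MAMs and 1.82 to 2.53 in RAMs, without overlap. With Gbp7 left out of the GBP sum, the ratio was 0.727 to 1.09 in MAMs and 0.561 to 0.871 in RAMs, and the groups overlapped.

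The MAM libraries differed among themselves. MAM replicate 1 was the highest MAM library for all 10 members, whereas it was the highest for 23.5% of all genes tested. The lowest MAM library was replicate 4 for 5 members, replicate 5 for 4 and replicate 3 for 1. The sums of the 10 members were 2748, 2236, 1788, 1546 and 1650.3 CPM in MAM replicates 1 to 5. Of the marker genes, the scavenger receptor gene Marco ran in the same order, at 389, 320, 213, 89.7 and 149 CPM. So did the macrophage markers C1qa (1017, 862, 768, 699 and 716 CPM) and Lyz2. None of the other alveolar macrophage markers in the files did, among them Fabp4 (8.66, 7.76, 15.1, 16.5 and 10.8 CPM). The recruited macrophage markers went both ways. Apoe, Trem2 and Ms4a7 were lower in MAM replicates 1 and 2 than in the others, whereas Ccr2, Itgam and Plac8 were higher there. Cx3cr1 and Ly6c2 did neither. The 6 neutrophil markers summed to 47.7, 56.6, 67.4, 112 and 99.5 CPM. Their most abundant gene, Mmp8, was at 19.9, 18.4, 46.0, 64.7 and 60.8 CPM, whereas Mmp9 ran the other way, at 22.2, 31.1, 13.4, 11.5 and 16.7 CPM. With only 5 libraries the part of these markers in the spread was not tested. Without MAM replicate 1, all 10 members were called higher, and Gbp2, which moved most of them, had a log2 fold change of 3.82.

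**Figure D2:**
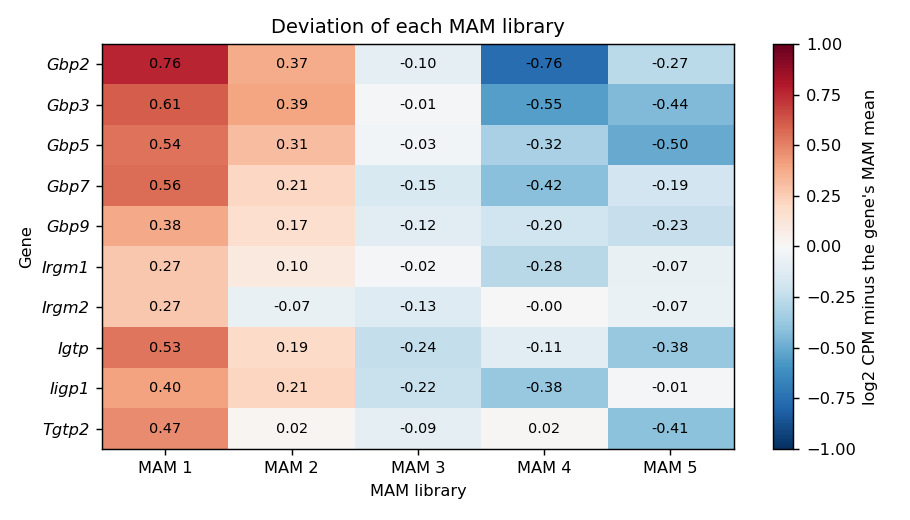
Deviation of each MAM library (columns) from the gene's mean over the 5 MAM libraries, in log2 CPM, for the 10 members (rows). MAM 1 is positive for every gene, and Gbp2 runs from 0.76 in MAM 1 to -0.76 in MAM 4.

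Markers of other cells were read in the same libraries. The 11 T and NK cell markers, from cells that make interferon-gamma, summed to 10.1 to 19.8 CPM in MAMs and 1.59 to 9.76 CPM in RAMs. Cd4, which some macrophages express, gave 10.1 CPM of the MAM mean, 8 of the 11 were under 1 CPM on average in MAMs, and 1 of the 2 tested was called higher. The 6 endothelial and stromal markers summed to 41.8 to 95.2 CPM in MAMs and 2.13 to 11.8 CPM in RAMs, all 5 tested were higher in MAMs, and none was at 0 in all MAM libraries. Other sums went the other way. The 6 epithelial and tumour markers summed to 6.89 to 22.1 CPM in MAMs and 456 to 593 CPM in RAMs, and 4 of the 5 tested were lower in MAMs. Krt19 alone gave 436 CPM of the RAM mean. The 7 dendritic cell markers summed to 3.44 to 13.9 CPM in MAMs and 17.2 to 26.0 CPM in RAMs. Clec9a alone gave 19.4 CPM of the RAM mean. Of the 2 dendritic cell markers tested, Clec9a was called lower in MAMs and Ccr7 higher. The 5 B cell markers overlapped, at 4.27 to 23.1 and 2.67 to 16.7 CPM. The part of these cells in the levels of the GTPases was not tested. Kdr, the most abundant of these stromal markers, was at 12.1 to 54.3 CPM in MAM libraries, and the members at 52.0 to 509.9 CPM.

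Similar copies set how far the counts of a member can be read, because the authors counted uniquely mapped reads only and reads were 100 bases long. For each member, all 100-base windows of its GENCODE M21 transcripts were looked up in the transcripts of all other annotated genes. Gbp2, Irgm1 and Iigp1 had no shared window, Gbp5 shared 0.142% and Gbp3 0.694%. Gbp9 shared 1.65%, mostly with Gbp4 and Gbp8, whose gene models overlap it. Gbp7 shared 10.0%, of which 9.59% fell in the overlapping gene Gm43802. Igtp shared 5.16% and Irgm2 3.01%, in each case with the other, since the 2 gene models overlap on the same strand. Tgtp2 stood apart with 76.8% of its windows also present in Tgtp1.

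**Figure D3:**
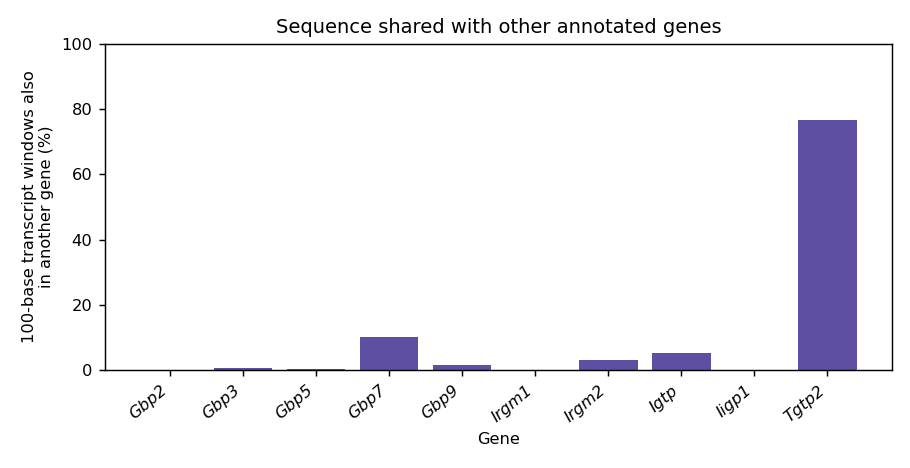
Share of the 100-base transcript windows of each member (bars, percent) that also occur in a transcript of another annotated gene. Tgtp2 reaches 76.8%, Gbp7 10.0%, and the other 8 members lie between 0 and 5.16%.

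The level of Tgtp2 is therefore uncertain, and so is its split from Tgtp1, while a fold change of the pair does not need the split. The ratio of Tgtp2 to Tgtp1 counts was 3.07 to 4.83 in MAMs and 2.44 to 14.3 in RAMs, where Tgtp1 had 3 to 16 counts per library. Summed, the pair held 3581 to 6245 counts in MAM libraries and 35 to 55 in RAM libraries, a log2 fold change of 6.78 (SE 0.205), near that of Tgtp2 alone. Igtp and Irgm2 summed gave 3.55 (SE 0.152), between their own values. Gbp2 summed with Gbp2b gave 4.25 (SE 0.276). Gbp9 summed with its 5 relatives on chromosome 5 gave 3.36 (SE 0.160), lower than the 4.87 of Gbp9 alone, because Gbp8 holds most counts of this group in RAMs. The ratio of Gbp9 to Gbp8 in CPM was 3.42 to 4.82 in MAMs and 0.142 to 0.313 in RAMs.

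Relatives outside the list were measured in the same fit. Of 18 other interferon-inducible GTPase genes in the files 14 were tested. By edgeR 12 were called higher and 0 lower, against 28.9 and 27.3% of all genes tested. None was lower by DESeq2 or at an unadjusted p under 0.05 either. The median log2 fold change of the 14 was 5.65. Those called higher included the GBPs Gbp2b (log2 fold change 7.004, SE 0.518), Gbp4 (6.47, SE 0.313) and Gbp6 (4.73, SE 0.187). They also included the IRG-type genes Ifi47 (4.84, SE 0.209), Tgtp1 (6.95, SE 0.427), Gm4951 (6.03, SE 0.352), Gm12250 (6.00, SE 0.310) and F830016B08Rik (5.30, SE 0.496). The dynamin-like GTPase genes Mx1 (6.56, SE 0.135) and Mx2 (6.95, SE 0.286) rose as well. Mx2 is annotated as a polymorphic pseudogene, and whether either RNA gives a working protein in these mice was not tested. The near-identical pair 9930111J21Rik1 (0.98, SE 0.151) and 9930111J21Rik2 (1.67, SE 0.365) rose least, and these 2 share 69.4 and 48.3% of their windows with each other. Gbp2b is read with the widest spread, 112, 63.5, 42.3, 20.6 and 32.0 CPM in MAM replicates 1 to 5. In RAMs it was at 0.149 to 0.626 CPM. Of the 14 tested, only Gbp8, Ifi47, 9930111J21Rik1 and Mx1 averaged at least 1 FPKM in RAMs. The others passed the FPKM filter only through MAMs. A lower call was thus open to few of the 14, and their median is in part set by the filter.

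Gbp8 was the exception among the tested GBPs with counts. It was at 69.8, 47.6, 35.5, 33.8 and 32.4 CPM in MAMs and at 36.8, 29.2, 35.4, 28.1 and 28.8 CPM in RAMs. The groups overlapped, and its log2 fold change of 0.47 (SE 0.198) had an adjusted p of 0.0570 by edgeR. The call was sensitive, since the adjusted p was 0.0371 by DESeq2 and 0.0293 by edgeR without MAM replicate 5. Gvin1, a very large interferon-inducible GTPase gene, held at most 1 count per library, and 97.8% of its windows occurred in other genes, mainly Gm4070. Gm4070 and Gm17757 had no counts in any library, yet the authors' FPKM of these 3 genes averaged 1.57, 1.72 and 2.13 in MAMs, so that no change can be read from either. Gbp10 and Gbp11 were under the FPKM minimum and were not tested, with 14 to 174 and 4 to 97 counts in MAM libraries and 0 to 5 and 0 to 24 in RAM libraries. Of the windows of Gbp10 73.5% and of those of Gbp6 64.5% occurred in other genes, in part in each other, so that the levels of both are uncertain.

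**Figure D4:**
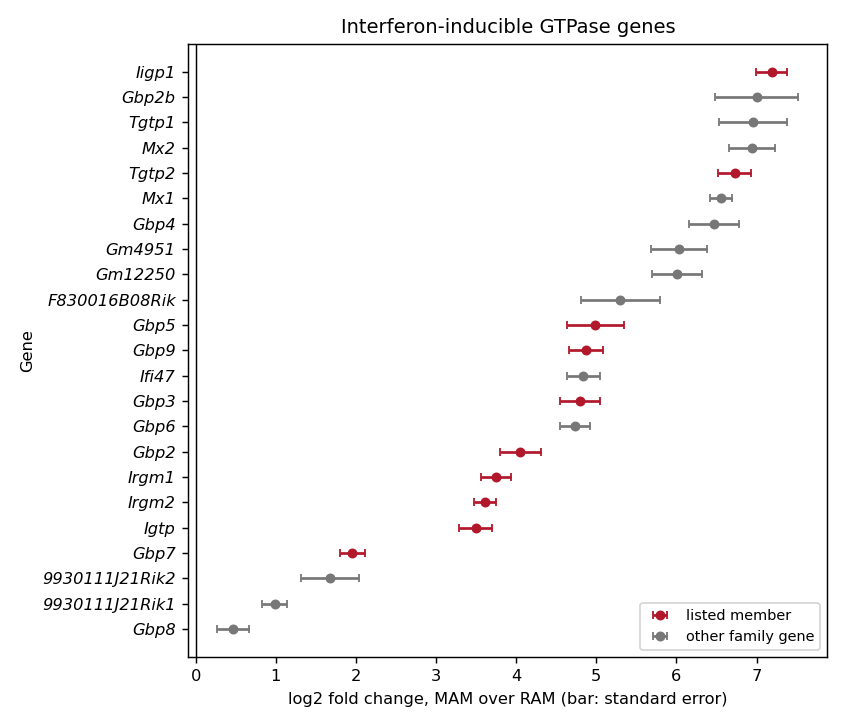
Log2 fold change of MAM over RAM (points) with its standard error (bars) for the 10 members and 13 other interferon-inducible GTPase genes, sorted by size. All 10 members lie between 1.96 (Gbp7) and 7.19 (Iigp1), and the lowest gene is Gbp8 at 0.47.

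GTPases of related build that are not interferon-inducible were read beside them. Of 8 such genes, IRG-like, atlastin and dynamin genes, 1 was called higher and 2 lower. The shares of all genes tested were 28.9 and 27.3%, so that these few calls do not set the list apart. Dnm1, a dynamin of membrane fission best known from neurons, rose from 0.402 to 9.58 CPM (log2 fold change 4.55, SE 0.606). Irgc1, an IRG expressed in testis (-1.39, SE 0.484), and Atl1, which shapes the endoplasmic reticulum (-1.11, SE 0.285), fell. The values of Dnm2 (0.02, SE 0.0676) and Dnm1l (-0.01, SE 0.0767) were close to 0.

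The genes that carry the interferon signal were read next, from receptor to transcription factor. Of 20 such genes 17 were called higher and 1, the kinase gene Tyk2, lower, against 28.9 and 27.3% of all genes tested. The 3 with the largest changes were Usp18, a brake on the type I receptor (log2 fold change 6.27, SE 0.151), the feedback inhibitor Socs3 (4.43, SE 0.299) and Nlrc5, which drives MHC class I genes (4.01, SE 0.122). The receptor chains Ifnar1 (2.16, SE 0.0818), Ifnar2 (1.88, SE 0.0785) and Ifngr2 (1.34, SE 0.0925) rose. The ligand-binding chain of the interferon-gamma receptor, Ifngr1, averaged 122 CPM in MAMs and 131 CPM in RAMs (-0.11, SE 0.0819, adjusted p = 0.281 by edgeR). Irf1 rose from 25.9 to 133 CPM (log2 fold change 2.36, SE 0.172), Irf9 from 27.6 to 118 CPM (2.10, SE 0.111) and Irf8 from 80.8 to 161 CPM (0.99, SE 0.139).

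Of the interferon ligands, only Ifnk was counted in every library of both groups, with 24 to 271 counts in MAMs and 238 to 520 in RAMs. Ifng had 0 counts in all 5 MAM libraries, which allows up to 3 counts in each, and 0, 1, 23, 0 and 0 counts in RAM replicates 1 to 5. Ifnb1 had 16 and 8 counts in MAM replicates 3 and 5 and 0 in the other libraries. Ifna1, Ifna2, Ifna4, Ifna5, Ifne, Ifnl2 and Ifnl3 had 0 counts in all libraries. Of the cytokines that induce interferon-gamma, Il12b had 7 to 187 counts in MAMs and 0 to 4 in RAMs, and Il12a at most 3. Il18 fell (log2 fold change -1.86, SE 0.175), as did Ifnk, a type I interferon gene (2.21 CPM in MAMs and 6.88 CPM in RAMs, -1.64, SE 0.484), and Il27 was at 2.71 and 2.49 CPM (0.12, SE 0.486).

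Partners of the GTPases did not move as one group. The counts below stand beside shares of 28.9% called higher and 27.3% called lower among all genes tested. The ATG8 conjugation system is needed to load GBPs and IRGs onto vacuoles, and of its 11 genes 2 were called higher and 4 lower, with a median log2 fold change of 0.15. The ATG8 genes were split. Map1lc3a (-2.84, SE 0.430) and Map1lc3b (-0.90, SE 0.0947) fell, whereas Gabarap, the most abundant of them, rose from 280 to 372 CPM (0.41, SE 0.0738). Gabarapl1 (-0.03, SE 0.151) and Gabarapl2 (0.17, SE 0.322) were not called. Atg12, a ubiquitin-like conjugate of Atg5, rose (0.73, SE 0.168). Of 10 genes for recognition of vacuoles and damaged membranes 8 were called higher and 0 lower (edgeR, with 0 lower also by DESeq2 and at an unadjusted p under 0.05). The largest changes were those of Ube2l6, the conjugating enzyme of ISG15 (2.95, SE 0.294), the galectin gene Lgals9 (2.87, SE 0.105) and Trim21, an antibody receptor and ubiquitin ligase (1.75, SE 0.159). Of 8 inflammasome partners 5 were called higher and 1 lower. The cytokine gene Il1b (3.08, SE 0.200) and Casp4, the mouse caspase-11 gene (1.94, SE 0.129), rose, and the sensor gene Nlrc4 fell (-1.42, SE 0.189). Of 8 genes for the prenylation of CaaX proteins, the modification that anchors Gbp2 and Gbp5, 1 was called higher (Pggt1b, a subunit of a prenyl transferase, 0.78, SE 0.129) and 1 lower (Fdps, the farnesyl diphosphate synthase gene, -1.26, SE 0.418). Against a fold change of 2, the vacuole recognition and inflammasome genes called higher were 3 each.

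The genes tested whose profile over the 10 libraries was nearest to the mean profile of the members were Gbp6, Zbp1, Cd86, Slfn8 and Clec4d. Likeness was the root mean square difference of log2 CPM, each gene centred on its own mean over all 10 libraries. It was 0.171 for Gbp6, 0.188 for Zbp1, 0.210 for Cd86, 0.224 for Slfn8 and 0.256 for Clec4d. A near gene must thus have a similar group difference, and the log2 fold changes of these 5 were 4.37 to 4.75. The measure does not show that they vary together within a group. Zbp1, a sensor of Z-form nucleic acids, was at 359 ± 61.2 CPM in MAMs and 15.2 ± 3.49 CPM in RAMs (SD, n = 5). Cd86, a costimulatory ligand of T cells, was at 189 ± 51.6 and 9.17 ± 2.22 CPM. By the same measure Gbp3 (0.212) and Gbp9 (0.270) were the members nearest to the mean profile, which they helped to set, and Gbp7 (1.32) and Iigp1 (1.31) the farthest.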

How the data were processed

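The authors aligned paired 100-base reads to mm10 with TopHat2 2.0.13, counted uniquely mapped reads per RefGene gene with HTSeq 0.6.1 and estimated FPKM with Cufflinks 2.2.1. The deposited files hold raw counts and FPKM per gene and library, and no strand setting is given in the sources used here. Counts were fitted with edgeR 4.0.16 (TMM scaling, quasi-likelihood test, all 10 libraries, no covariate) for 11571 genes whose FPKM averaged 1 or more over MAMs or over RAMs and that had a count in some library, which left out 51 genes over that FPKM with no counts. A gene was called at an adjusted p under 0.05 (Benjamini-Hochberg over all genes tested). HTSeq's summary lines (reads in no gene, ambiguous, not unique), 54.6 to 58.3% of reads in MAMs and 62.2 to 64.1% in RAMs, were left out of library sizes. The fit was tested on simulated counts. The members and the gene lists were chosen with earlier results of these data known. Named genes were all members, all other interferon-inducible GTPases, interferon ligands, the main receptor and IRF genes, the 3 largest called changes of each further list and the 5 nearest profiles. A gene that this rule names is not reported here. Dnm2, Dnm1l, Gabarap, Gabarapl1 and Gabarapl2 were named outside this rule, after their values were seen. No genome sequence was used, so that windows were compared among GENCODE M21 transcripts only, a gene set other than that of the counts. The labels do not say that replicates came from separate animals. The paper states in general that a sample was 1 mouse or a pool of metastases. The p-values measure the spread between these libraries. Alternatives were DESeq2 1.42.0, other scaling factors, other filters, a replicate block, limma 3.58.1 on log2 FPKM, summed copies, glmTreat at a fold of 2 and each library left out.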

Additional observations from a re-analysis of the deposited data

Results flagged for a closer look

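Of 46 groups of 5 libraries tested for a library far from the others, 3 were picked out, and chance alone picks out about 1 in 20. All 3 were the highest MAM library and all were MAM replicate 1. Irgm2 was at 290.7 CPM there and at 221 to 240 CPM in the other MAM libraries. Tgtp1 was at 31.2 CPM there and at 13.4 to 16.1 CPM in the others, and since 70.3% of its windows occur in Tgtp2, its level is uncertain. Gm12250, annotated as a processed pseudogene on chromosome 11, was at 116.6 CPM there and at 56.2 to 73.4 CPM in the others.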

How the results depend on the processing

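All 10 members kept their direction and their call in each of 205 alternative values, with adjusted p up to 1.81e-05 (Gbp7 against a fold change of 2). The log2 fold changes of Iigp1 and Tgtp2 were 5.05 and 4.23 by limma on log2(FPKM + 1), below 7.19 and 6.73, since the added 1 exceeds their FPKM in RAMs. Summing copies moved Gbp9 to 3.36. The smaller lists moved more. Vacuole recognition genes called lower were 1 with upper-quartile scaling and 1 with library totals, against 0. Prenylation genes called lower were 2 with upper-quartile scaling, 3 with library totals and 0 against a fold change of 2, with a range of 1 to 2 when each library was left out, against 1. Against a fold change of 2, the genes called higher were 0 for ATG8 conjugation, 3 for vacuole recognition, 3 for inflammasome partners and 0 for prenylation, and 1 ATG8 gene was called lower. Deviations of same-numbered libraries from their group means had correlations of -0.037 to 0.029. MAM replicates 3 and 5 correlated most with the RAM library of the same number, and replicates 1, 2 and 4 with another. These values cannot exclude that some libraries were processed together. With the replicate number as a block, 10 of 10 members were called higher, 2 prenylation genes were called lower, and 3205 genes were called higher and 3100 lower in all. Depth limits the RAM levels of Iigp1 and Tgtp2 (27 to 73 counts) and of Tgtp1.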
